A study of Mus musculus with 6 samples.

Results

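Matrix metalloproteinases (MMPs) and their tissue inhibitors (TIMPs) were followed across 6 mammary tumours. The set was defined by gene symbol: every array probe annotated to Mmp2, Mmp3, Mmp9, Mmp10, Mmp11, Mmp12, Mmp13, Mmp14, Timp1 or Timp2 was taken, which gave 16 of the 45281 probes and 10 of the 19057 genes with a probe. All 10 genes had at least 1 tested probe, and 15 of the 16 probes were bright enough to be tested. There were 3 PyMT/ETP tumours, also labelled PyMT/C5, and 3 PyMT control tumours. All came from 12-week-old females of the pure FVB strain. All carried the PyMT transgene, polyomavirus middle T antigen under the mouse mammary tumour virus promoter, so that tumours arise in mammary epithelium. The PyMT/ETP tumours carried an endotrophin transgene in addition. Endotrophin is the carboxy-terminal fragment of the collagen VI alpha 3 chain. Which promoter drives the endotrophin transgene is not given in the sources used here. Labels name no individual animals, so the p-values speak for the scatter of these 6 samples, part of which may be technical. The comparison asked which transcripts differ when endotrophin is added to PyMT-driven tumours.

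MMPs are zinc-dependent endopeptidases that are made as inactive precursors and cut collagens, laminins, elastin, proteoglycans and other proteases. In mammary tumours much of the MMP transcript is known to come from fibroblasts, macrophages and neutrophils of the stroma rather than from the carcinoma cells. TIMPs bind the active site of MMPs and block it, and Timp2 also takes part in the activation of the Mmp2 precursor by Mmp14 on the cell surface. Transcript levels do not measure protease activity, which depends on precursor cleavage and inhibitor binding. In whole tumour tissue, fewer cells of a type and less RNA per cell cannot be told apart.

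Mmp13, Mmp12, Mmp3 and Mmp10 lie together on mouse chromosome 9, within 237.7 kb from the start of Mmp13 to the end of Mmp10 (chr9:7272514-7283333 for Mmp13, chr9:7344397-7360461 for Mmp12, chr9:7445822-7455975 for Mmp3 and chr9:7502342-7510242 for Mmp10, build GRCm38.p6). Their promoters are shown because these 4 genes had their highest level in the same tumour, which was also the highest for Mmp9, a gene with no promoter window on hand. Each stretch runs 5′ to 3′ on the gene's strand, which is the plus strand for all 5, from 120 bases before the annotated start through the first 20 bases after it. Sequences are from RefSeq, build GRCm38.p6, and capitals mark matches to the AP-1 motif TGAGTCA, or its reverse complement TGACTCA, and to the TATA box TATAAA. For Mmp12 the stretch at the second of 2 annotated starts is shown, because the window of the first start held neither match. Mmp14 stands for a member with neither match.
Mmp13 (chr9:7272394-7272533): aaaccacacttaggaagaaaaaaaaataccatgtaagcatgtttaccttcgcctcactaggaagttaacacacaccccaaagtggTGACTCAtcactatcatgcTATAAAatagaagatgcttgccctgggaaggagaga
Mmp12 (chr9:7347254-7347393): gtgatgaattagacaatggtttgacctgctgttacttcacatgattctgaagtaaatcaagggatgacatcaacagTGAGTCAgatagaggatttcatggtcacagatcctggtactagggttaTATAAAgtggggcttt
Mmp3 (chr9:7445702-7445841): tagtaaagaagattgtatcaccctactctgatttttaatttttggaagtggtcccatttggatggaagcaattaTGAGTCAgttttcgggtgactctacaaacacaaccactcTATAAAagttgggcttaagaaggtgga
Mmp10 (chr9:7502222-7502361): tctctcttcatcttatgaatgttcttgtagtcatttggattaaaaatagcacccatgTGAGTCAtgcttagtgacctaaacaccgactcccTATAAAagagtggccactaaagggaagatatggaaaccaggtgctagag
Mmp14 (chr14:54431478-54431617): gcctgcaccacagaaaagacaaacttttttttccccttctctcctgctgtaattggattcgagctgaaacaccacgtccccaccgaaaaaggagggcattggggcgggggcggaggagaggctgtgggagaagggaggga

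Promoter windows of 300 bases, from 250 before to 50 after a start, were on hand for 8 of the 10 genes, all but Mmp2 and Mmp9, in 9 windows. The AP-1 motif, the binding sequence of Fos and Jun family dimers, was found on either strand in 4 of the 9 windows, 1 each of Mmp13, Mmp12, Mmp3 and Mmp10. Of all 32851 windows in the table, 5.2% held it. The TATA box was found in the same 4 windows, and 13.6% of all windows held it. Both motifs together were present in 0.941% of all windows. The 4 genes are neighbours of 1 gene family, so their windows are not independent of each other. The first base of the AP-1 match was at -35 in Mmp13, -44 in Mmp12, -46 in Mmp3 and -63 in Mmp10, where -1 is the base before the start. The TATA box began at -16 in Mmp13, -7 in Mmp3, -29 in Mmp10 and 5 bases into the transcript in Mmp12. An ETS core, AGGAAG or its reverse complement CTTCCT, was in 5 of the 9 windows, against 35.4% of all windows, and overlapped neither of the other motifs. A match describes the letters only, and binding was not measured.

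**Figure D1:**
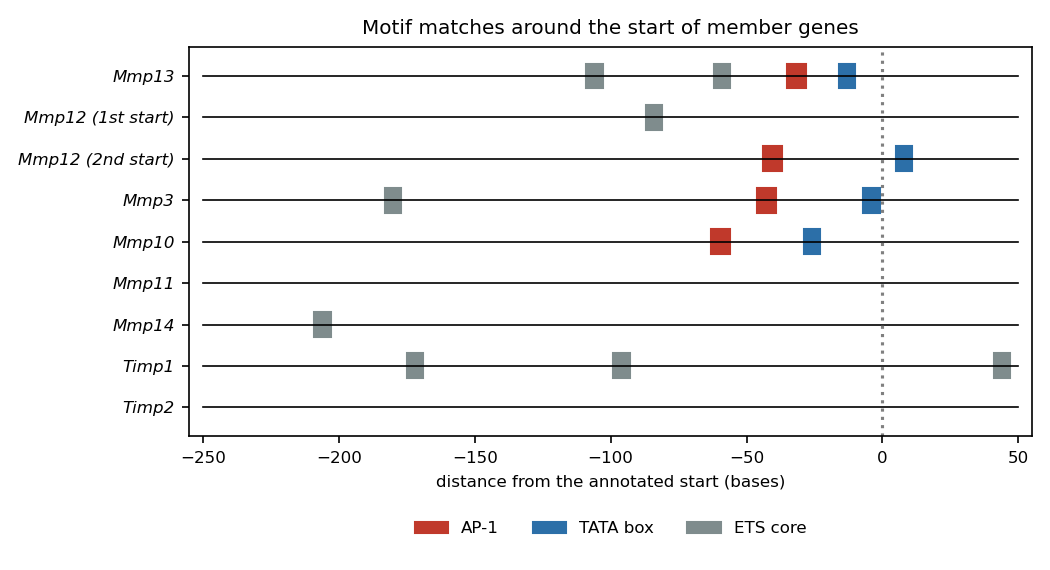
Positions of motif matches on either strand in the 9 promoter windows of 8 member genes, in bases from the annotated start (dotted line). AP-1 and TATA box matches stand side by side in Mmp13, Mmp3, Mmp10 and the second start of Mmp12, and in none of the other 5 windows.

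No MMP or TIMP probe differed past the threshold between the groups. Levels are given as log2 units of background-corrected intensity with an offset of 16, and differences as PyMT/ETP minus PyMT control on that scale, which understates the change of dim genes. With limma and Benjamini-Hochberg adjustment over 24893 tested probes, 0 of 15 member probes passed an adjusted p of 0.05, and 0% of all tested probes did. The adjusted p of each member probe was 1.00 after rounding, and the lowest over all probes was 0.999656. At an unadjusted p of 0.05, 1 member probe was below the line, that of Mmp9, against 4.69% of all tested probes. With 3 tumours in each group, an exact permutation test of a single probe cannot go below 0.1. The number of arrays limits the precision.

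The direction of the means was mixed. Of the 15 tested probes, 10 had a lower mean in PyMT/ETP tumours and 5 a higher one, where 47.8% of all tested probes had a lower mean. By the brightest probe of each gene, 7 genes were lower (Mmp3, Mmp9, Mmp10, Mmp12, Mmp13, Mmp14 and Timp1) and 3 were higher (Mmp2, Mmp11 and Timp2), where 49.2% of all 12864 tested genes were lower. The median difference over the 15 probes was -0.15 log2 units, against 0.01 over all tested probes. Leaving out PyMT control replicate 2 gave 0.02, and leaving out PyMT/ETP replicate 3 gave 0.07.

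**Figure D2:**
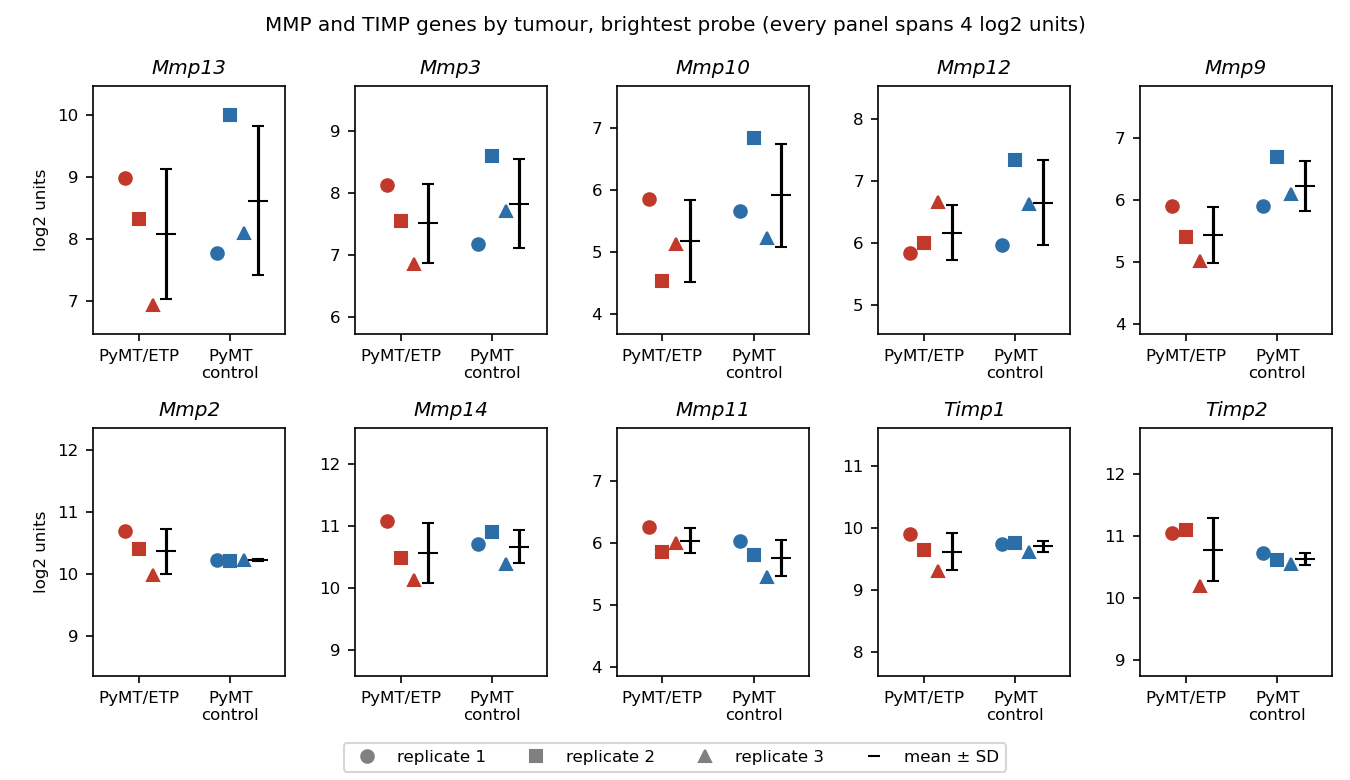
Level of each member gene by its brightest probe in the 3 PyMT/ETP (red, left) and 3 PyMT control (blue, right) tumours, in log2 units, with the mean and SD of each group in black. Mmp13, Mmp3, Mmp10, Mmp12 and Mmp9 were all highest in PyMT control replicate 2 (square), and the 5 genes of the lower row varied less.

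Among the collagenases, Mmp13 varied most of all members. Mmp13, which cleaves fibrillar collagen and is a main interstitial collagenase of rodents, was at 8.98, 8.32 and 6.94 log2 units in PyMT/ETP replicates 1 to 3, against 7.76, 9.99 and 8.10 in PyMT control replicates 1 to 3. The highest tumour was a control and the lowest a PyMT/ETP tumour, and the other 4 were mixed. The mean was 8.08 ± 1.04 in PyMT/ETP and 8.62 ± 1.20 in PyMT control tumours (SD, n = 3 each), a difference of -0.54 (SE 0.62, 95% confidence interval -1.93 to 0.86). From the lowest to the highest tumour Mmp13 spanned 3.06 log2 units, or 8.32-fold, a wider span than that of 99.8% of tested probes, whose median span was 0.59. The difference was 0.15 without PyMT control replicate 2, which held the highest level, and 0.03 without PyMT/ETP replicate 3, which held the lowest.

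The 3 Mmp13 probes did not all follow the same course. A dimmer probe, between 4.42 and 5.12 log2 units in PyMT/ETP and between 4.87 and 5.97 in PyMT control tumours, was also highest in PyMT control replicate 2 and lowest in PyMT/ETP replicate 3. It had a difference of -0.47 (SE 0.29), and over the 6 tumours its Pearson correlation with the brightest probe was 0.93. The last probe stayed between 4.94 and 5.05 in PyMT/ETP and between 4.49 and 5.09 in PyMT control tumours, near the background limit of 4.61. It was lowest in PyMT control replicate 2, had a difference of 0.17 (SE 0.18), and correlated at -0.65 with the brightest probe.

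The stromelysins Mmp3 and Mmp10, which degrade proteoglycans and laminin and activate other MMP precursors, had their highest level in the same control tumour. Mmp3 was at 8.14, 7.56 and 6.86 log2 units in PyMT/ETP replicates 1 to 3, against 7.19, 8.60 and 7.71 in PyMT control replicates 1 to 3. Its groups overlapped, with a difference of -0.32 (SE 0.39) by the brightest probe. The other Mmp3 probes had differences of -0.36 (SE 0.27) and -0.15 (SE 0.37), and the 3 probes correlated with each other at 0.92 to 0.98 over the 6 tumours. All of them were highest in PyMT control replicate 2 and lowest in PyMT/ETP replicate 3. Without PyMT control replicate 2 the brightest probe had a difference of 0.07.

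Mmp10 was dim in several tumours. It was at 5.85, 4.53 and 5.13 log2 units in PyMT/ETP replicates 1 to 3, against 5.66, 6.84 and 5.22 in PyMT control replicates 1 to 3. PyMT/ETP replicate 2 was not above the background limit, so the size of the difference rests in part on a value at background. The means were 5.17 ± 0.66 in PyMT/ETP and 5.91 ± 0.83 in PyMT control tumours (SD, n = 3 each), a difference of -0.74 (SE 0.43, 95% confidence interval -1.70 to 0.22). With 1 tumour left out it ran from -1.08, without PyMT control replicate 3 or without PyMT/ETP replicate 1, to -0.28 without PyMT control replicate 2. It was -0.32 with no background correction.

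Mmp12, the macrophage metalloelastase, had an order of tumours of its own. It was at 5.83, 5.99 and 6.67 log2 units in PyMT/ETP replicates 1 to 3, against 5.98, 7.34 and 6.62 in PyMT control replicates 1 to 3. PyMT control replicate 2 was again highest, but PyMT/ETP replicate 3, the lowest tumour for 7 of the 10 genes, was second for Mmp12. The difference was -0.48 (SE 0.34, 95% confidence interval -1.24 to 0.28), and with 1 tumour left out it ran from -0.82 without PyMT control replicate 1 to -0.13 without PyMT control replicate 2.

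The gelatinases cleave denatured collagen and type IV collagen of basement membranes, and the 2 of them went in opposite directions by their means. Mmp9 was at 5.91, 5.40 and 5.02 log2 units in PyMT/ETP replicates 1 to 3, against 5.91, 6.69 and 6.10 in PyMT control replicates 1 to 3. The groups did not overlap, but the highest PyMT/ETP tumour and the lowest control were only 0.0015 log2 units apart. Mmp9 was the 1 member probe of 15 without overlap, against 8.87% of all tested probes, of which 3.92% were lower and 4.95% higher in PyMT/ETP tumours. The means were 5.44 ± 0.45 in PyMT/ETP and 6.23 ± 0.41 in PyMT control tumours (SD, n = 3 each), a difference of -0.79 (SE 0.27), or 1.73-fold lower in PyMT/ETP tumours. Its unadjusted limma p was 0.0152, which did not hold after adjustment over all probes (adjusted p = 0.999656 in limma's test). With 1 tumour left out the difference ran from -1.02 to -0.56, the smallest without PyMT control replicate 2. It was -0.35 with no background correction and -0.49 with an offset of 50, so the fold depends on how the background is treated.

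Mmp2, the gelatinase made mainly by fibroblasts, was far brighter than the limit on all arrays. It was at 10.70, 10.41 and 9.99 log2 units in PyMT/ETP replicates 1 to 3, against 10.23, 10.20 and 10.23 in PyMT control replicates 1 to 3. The PyMT/ETP tumours had an SD of 0.36 and lay on both sides of the controls, whose SD was 0.014. The difference was 0.14 (SE 0.19, 95% confidence interval -0.29 to 0.58), and -0.02 without PyMT/ETP replicate 1.

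Mmp14, the membrane-anchored MMP that activates the Mmp2 precursor and cuts collagen at the cell surface, overlapped between the groups. It was at 11.08, 10.49 and 10.13 log2 units in PyMT/ETP replicates 1 to 3, against 10.71, 10.91 and 10.38 in PyMT control replicates 1 to 3. PyMT/ETP tumours held both the highest and the lowest value. The difference was -0.10 (SE 0.25, 95% confidence interval -0.66 to 0.46), and its sign turned when PyMT/ETP replicate 3 (0.12) or PyMT control replicate 2 (0.02) was left out. A second Mmp14 probe was above the background limit in 1 of 6 tumours and was not tested. It was between 4.25 and 4.67 log2 units in PyMT/ETP and between 4.25 and 4.39 in PyMT control tumours.

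Mmp11, stromelysin-3 of tumour-associated fibroblasts, was at 6.25, 5.84 and 6.002 log2 units in PyMT/ETP replicates 1 to 3, against 6.03, 5.80 and 5.45 in PyMT control replicates 1 to 3. The difference was 0.27 (SE 0.19, 95% confidence interval -0.16 to 0.70). It was the largest positive difference among the members and was positive with any 1 tumour left out, from 0.12 to 0.41. The groups overlapped, since 1 control lay above 2 of the PyMT/ETP tumours.

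The inhibitors were bright on all 6 arrays, and their groups overlapped. Timp1, which binds the Mmp9 precursor as well as active MMPs, was at 9.91, 9.65 and 9.31 log2 units in PyMT/ETP replicates 1 to 3, against 9.75, 9.76 and 9.61 in PyMT control replicates 1 to 3. Its difference was -0.08 (SE 0.18, 95% confidence interval -0.49 to 0.32). Its other probe had a difference of 0.09 (SE 0.22), so the sign depended on the probe. Timp2 was at 11.06, 11.09 and 10.20 log2 units in PyMT/ETP replicates 1 to 3, against 10.73, 10.62 and 10.54 in PyMT control replicates 1 to 3. Of the PyMT/ETP tumours 2 lay above all controls and 1 below them, with a difference of 0.15 (SE 0.24, 95% confidence interval -0.38 to 0.69). It was 0.45 without PyMT/ETP replicate 3 and -0.00040 without PyMT/ETP replicate 2.

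**Figure D3:**
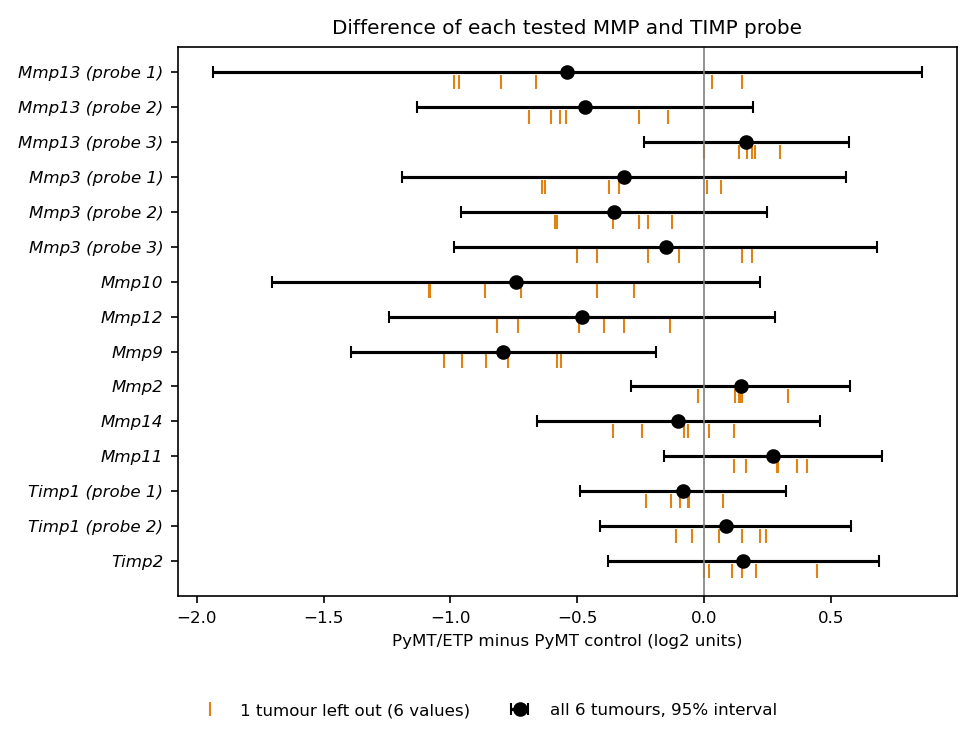
Difference between PyMT/ETP and PyMT control tumours of the 15 tested probes in log2 units, with the unadjusted 95% confidence interval of limma's fit (black) and the 6 values with 1 tumour left out (orange). Probes of 1 gene are numbered by falling level. Only the interval of Mmp9 lies off 0, and the values with 1 tumour left out fall on both sides of 0 for 9 of the 15 probes.

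The members varied more between tumours of 1 group than most probes did. The median span over the 6 tumours was 1.08 log2 units for the 15 member probes, against 0.59 for all tested probes, and the median SD within groups was 0.43, against 0.22. The width came from the chromosome 9 genes and Mmp9, which each spanned at least 1 log2 unit by the brightest probe, while the other 5 genes spanned 0.60 to 0.95. By the brightest probe, PyMT control replicate 2 was highest for 5 of the 10 genes, where 18.4% of all tested genes were highest in that tumour. PyMT/ETP replicate 3 was lowest for 7 of the 10, where 18% of all tested genes were. PyMT/ETP replicate 1 was highest for Mmp2, Mmp11, Mmp14 and Timp1.

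Some pairs of members had a like order of tumours. No grouping was computed, and members of different pairs also correlated, as Mmp2 with Timp1 (0.81) and Mmp13 with Mmp14 (0.80). Over the 6 tumours Mmp3 and Mmp13 had a Pearson correlation of 0.98 and a Spearman correlation of 0.94. Without PyMT control replicate 2 and PyMT/ETP replicate 3, the 2 tumours farthest from the median of Mmp3, the Pearson value was 0.93. Mmp14 and Timp1 had 0.94 and put the 6 tumours in the same order, with 0.95 without the 2 tumours farthest from the median of Mmp14. That order is of the brighter Timp1 probe. The dimmer Timp1 probe was lowest in PyMT control replicate 3 and correlated at 0.75 with the brighter one. With the mean of all tested probes of a gene, Mmp14 and Timp1 had 0.95. Mmp2 and Timp2 had 0.89, and 0.94 without the 2 farthest, with a Spearman correlation of 0.77 over the 6 tumours. Mmp9 and Mmp13 had 0.83, but -0.12 without the 2 farthest, so that relation rests on those tumours. Mmp12 correlated with the other 9 members between -0.64 and 0.54. These values come from the same 6 arrays, 45 pairs of members were computed, and they are descriptions of these tumours.

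**Figure D4:**
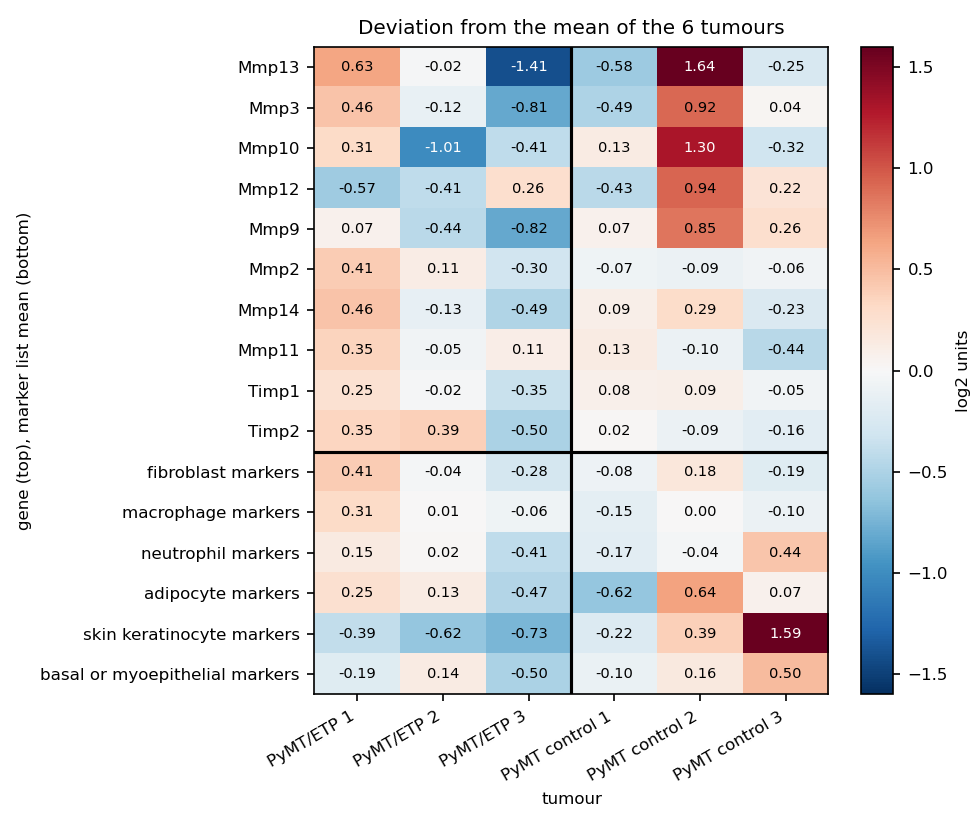
Deviation of each member gene (brightest probe, above the line) and of the mean of 6 marker lists (below it) from the mean of the 6 tumours, in log2 units, with PyMT/ETP tumours left of PyMT control tumours. Mmp13, Mmp3, Mmp10, Mmp12 and Mmp9 share the red cell of PyMT control 2. Fibroblast and macrophage markers are highest in PyMT/ETP 1, as are Mmp2, Mmp14, Mmp11 and Timp1.

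Marker genes of cells that make MMPs moved with some members across tumours. Of 8 luminal epithelial markers 7 were tested and lay above the stricter limit in all 6 tumours, with means from 9.83 to 9.98 in PyMT/ETP and from 9.84 to 10.11 in PyMT control tumours. None passed adjusted p 0.05 in limma's test, but the groups of 3 of the 7 did not overlap, against 8.17% of all tested genes. Krt8 (-0.27) and Krt19 (-0.78) were lower by their means in PyMT/ETP tumours and Epcam (0.41) was higher. Of 9 basal or myoepithelial markers 7 were tested, with means from 8.77 to 9.41 in PyMT/ETP and from 9.17 to 9.78 in PyMT control tumours. By their means 5 of the 7 were lower and 2 higher in PyMT/ETP tumours, from -1.10 for Krt17 to 0.11 for Mylk. Krt5 (-0.51) was the 1 of the 7 without overlap, against 8.17% of all tested genes. All 10 fibroblast markers, 4 of which are also among the matrix substrates, were tested, and their mean level ran from 7.65 to 8.34 in PyMT/ETP and from 7.74 to 8.10 in PyMT control tumours. It was highest in PyMT/ETP replicate 1 and lowest in PyMT/ETP replicate 3. Over the 6 tumours its correlation was 0.94 with Mmp14, 0.86 with Timp1, 0.82 with Mmp2, 0.78 with Mmp13 and 0.77 with Mmp3. It was 0.67 with Timp2, 0.56 with Mmp10, 0.51 with Mmp11, 0.50 with Mmp9 and -0.18 with Mmp12. Mmp11 had stronger values with other lists: 0.82 with mast cell, -0.82 with basal or myoepithelial and -0.82 with skin keratinocyte markers. Mmp2 had 0.83 with the macrophage markers, like its value with the fibroblast markers. Every member was correlated with every list over the same 6 tumours, and the values are descriptions. Of 10 macrophage markers 8 were tested, with means from 9.08 to 9.45 in PyMT/ETP and from 8.99 to 9.15 in PyMT control tumours. Their mean was also highest in PyMT/ETP replicate 1, and 7 of the 8 were higher by their means in PyMT/ETP tumours. The groups of 1 of the 8, Adgre1 (0.41), did not overlap, against 8.17% of all tested genes. Mmp12 had a correlation of -0.31 with the macrophage markers. Its highest values were 0.87 with the luminal epithelial and 0.80 with the endothelial markers.

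Of 10 neutrophil markers 6 were tested, while Mpo, Ngp and Cxcr2 did not pass the background filter. Their mean ran from 7.33 to 7.88 in PyMT/ETP and from 7.56 to 8.18 in PyMT control tumours, with a correlation of 0.49 with Mmp9. By their means in PyMT/ETP tumours, S100a8 (-0.54), Ltf (-0.52) and S100a9 (-0.39) were lower and Elane (0.32), Camp (0.11) and Csf3r (0.05) higher. Elane, which was near the background limit, was the 1 of the 6 without overlap, against 8.17% of all tested genes. Of 6 adipocyte markers 4 were tested, and Plin1 and Fabp4 did not pass the filter. The mean of the 4 ran from 5.54 to 6.27 in PyMT/ETP and from 5.39 to 6.65 in PyMT control tumours. It correlated with Mmp3 at 0.93 and with Mmp13 at 0.90. Of the 4, Cidec was near the background limit, and Adipoq ran from 6.51 in PyMT/ETP replicate 3 to 8.65 in PyMT control replicate 2. Of 9 skin keratinocyte markers 5 were tested, and Krt1, Dsg1a and Dsc1 did not pass the filter. By their means all 5 were lower in PyMT/ETP tumours, with a median difference of -0.96. None passed the adjusted threshold in limma's test. The groups of 3 of the 5, Krt10 (-0.96), Lor (-0.81) and Krtdap (-2.48), did not overlap, against 8.17% of all tested genes. Lor, Krtdap and Ivl were not above the stricter limit in all 6 tumours. The mean of the 5 ran from 5.88 to 6.22 in PyMT/ETP and from 6.39 to 8.20 in PyMT control tumours. It was highest in PyMT control replicate 3. In that tumour Mmp9 was at 6.10, and the correlation of the list with Mmp9 was 0.63. The part of these cell types in the MMP levels was not tested.

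No other gene of the pathway lists passed the test. In 5 lists of related genes, 0 of 76 tested genes passed adjusted p 0.05 in limma's test, and 0% of the 12864 tested genes did, with 4.31% at an unadjusted p of 0.05. Of the other MMPs and TIMPs 8 of 17 were tested, 4 higher and 4 lower, with a median difference of -0.02, against 0.00 over all tested genes. Mmp19 had -0.33 (SE 0.29) and Mmp17 had -0.25 (SE 0.22). Mmp7 and Mmp8, the matrilysin and the neutrophil collagenase, were on the array and did not pass the background filter. Timp3, the matrix-bound inhibitor, was at 9.80, 9.89 and 9.88 log2 units in PyMT/ETP replicates 1 to 3, against 10.20, 10.36 and 9.55 in PyMT control replicates 1 to 3.

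Among the ADAM and ADAMTS proteases, 7 of 17 tested genes were higher and 10 lower, with a median of -0.02. Adamts7 had 0.39 (SE 0.20). Adam10, a sheddase of membrane proteins, had 0.23 (SE 0.13). It was the 1 gene of the 17 whose groups did not overlap, against 8.17% of all tested genes. Of the activators, partners and other inhibitors, 6 of 18 were higher and 12 lower, with a median of -0.13. Plaur, the urokinase receptor, was at 4.92, 5.49 and 5.18 log2 units in PyMT/ETP replicates 1 to 3, against 6.20, 6.22 and 5.27 in PyMT control replicates 1 to 3, and had -0.70 (SE 0.27), and Plat, tissue plasminogen activator, had -0.32 (SE 0.18). Reck, a membrane-anchored MMP inhibitor, was at 0.38 (SE 0.24) and Furin, which activates Mmp14 and Mmp11, at 0.03 (SE 0.14).

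Transcription factors and cytokines known to act on MMP genes included 7 higher and 11 lower of 18 tested, with a median of -0.11. Fosb had -0.36 (SE 0.24) and Rela, a subunit of NF-kappaB, had -0.22 (SE 0.16). Of the other AP-1 genes tested, Fos had -0.11, Fosl2 -0.12, Jun 0.14, Junb -0.06 and Jund 0.13. Fos was at 10.01 and Jun at 7.99 in PyMT control replicate 2, the highest and the lowest value of each over the 6 tumours. Among matrix substrates 8 of 15 were higher and 7 lower, with a median of 0.02. Col4a2 and Col4a1, the type IV collagen chains cut by the gelatinases, had -0.39 (SE 0.17) and -0.30 (SE 0.18). Col4a2 was the 1 substrate of the 15 whose groups did not overlap, against 8.17% of all tested genes.

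Genes with the tumour pattern most like a member were sought for the 5 members that spanned at least 1 log2 unit, among 9617 genes above a stricter background limit in all tumours. By Pearson correlation over the 6 tumours these were Scrib (0.995) and H3c6 (0.992) for Mmp3, H3c6 (0.996) and Ascc2 (0.99) for Mmp13, and Zfp747 (0.99) and Taldo1 (0.98) for Mmp9. They were Slc23a4 (0.99) and Naprt (0.98) for Mmp10 and Nras (0.996) and Paxx (0.99) for Mmp12. With so few tumours many genes came this close: between 16 and 32 genes exceeded 0.95 for each of these members. Some of the values depended on the probe: with the mean of all tested probes of a gene, the value was 0.56 for Scrib, 0.38 for Nras, 0.75 for Ascc2 and 0.88 for Naprt.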

How the data were processed

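Total RNA of 6 mammary tumours was made into biotinylated cRNA for Illumina arrays, per the labels' protocols. Each deposited value is the intensity of 1 probe, not log-transformed. Which software and normalization made it is not given in the sources used here. Sorted, the authors' deposited intensity values differed between arrays by at most 0.185, as after quantile normalization, with a lowest value of 68.3 and a median of 96.5. A table of values before normalization was not used: its 24 value columns name a chip and a position that no label pairs with samples, so chip position was not tested as a batch.

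The background was estimated from the mode of the lowest 60% of all values (86.1) and the SD below it (4.83). The normexp model of limma was applied with these values, 16 was added and log2 taken. Probes above 94.0 (a 5% limit) on at least 3 of 6 arrays were tested: 24893 probes and 12864 genes, each gene by its brightest tested probe. The stricter limit was 97.3 on all 6 arrays (1% limit). Of 45281 probes, 34885 had 1 symbol, 18 several, and the rest none. Symbols were updated through RefSeq for 34807 probes.

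The comparison used lmFit and eBayes of limma 3.58.1 under R 4.3.3, 2-sided, with Benjamini-Hochberg adjustment over all tested probes or genes. The fit was tested on simulated data. The members, the lists and the marker genes were chosen with earlier results of these data known. All members were named, with the 2 genes of smallest unadjusted p in each list and the 2 genes most correlated with each wide-ranging member, unnamed transcripts left out. Others named for their role (Timp3, Mmp7, Mmp8, Reck, Furin and the AP-1 genes) were chosen after their values were seen. Same-numbered tumours of the 2 groups correlated at -0.08 to -0.03 in their deviations from the group means. With 3 tumours in each group these values cannot decide whether the numbers pair the tumours.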

Additional observations from a re-analysis of the deposited data

How the results depend on the processing

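In limma's test 0 member probes passed under 15 other settings and 0 member genes under 16, the lowest adjusted p of a member probe being 0.663. With the replicate block the counts over all probes and genes were 0 as well. Whether the replicate numbers pair the tumours is not known. Over all probes and genes 0 to 18 probes and 0 to 16 genes passed with 1 tumour left out, the highest without PyMT control replicate 1. Over the tested probes that tumour had a mean correlation of 0.987 with the PyMT/ETP tumours and 0.982 with the other controls. Every other tumour had the higher mean correlation with its own group. A setting without PyMT control replicates 2 and 3 was added after the data were seen. It leaves 1 control tumour, which is assumed to vary like the PyMT/ETP tumours. The median difference of the member probes ran from -0.42 to 0.07 with 1 tumour left out, from -0.17 to -0.095 under the other planned settings, and was 0.06 without PyMT control replicates 2 and 3. Of 391 recomputed differences of single probes or genes, 368 kept their sign and 23 turned. With 1 tumour left out the range was -0.023 to 0.33 for Mmp2, -0.64 to 0.068 and -0.50 to 0.19 for the brightest and dimmest Mmp3 probes, -0.99 to 0.15 and -0.0013 to 0.30 for the brightest and last Mmp13 probes, -0.36 to 0.12 for Mmp14, -0.23 to 0.073 and -0.11 to 0.24 for the brighter and dimmer Timp1 probes, and -0.00040 to 0.45 for Timp2. Without PyMT control replicates 2 and 3 the sign turned for the Mmp3 probes (0.33, 0.096 and 0.39), Mmp12 (0.19), the brightest Mmp13 probe (0.31), the dimmer Timp1 probe (-0.040), Mmp19 (0.31) and Fosb (0.070). Averaged over its probes, Timp1 was at 0.0011. The cause of these turns was not tested. Mmp9, Mmp10 and Mmp11 kept their sign in every setting run, except that Mmp10 could not be tested, nor could the 2 dimmer Mmp13 probes, at the stricter limit. With no background correction Mmp11 was at 0.12, and without PyMT control replicates 2 and 3 it was only 0.0027. Signal near background limits Mmp10 and the dimmer Mmp13 probes.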
